A study of Mus musculus with 8 samples.

Results

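The 37 genes described here carry fatty acids into muscle fibres, store them, burn them in mitochondria, or control the genes that do so through the coactivators PGC-1α (*Ppargc1a*) and PGC-1β (*Ppargc1b*). They were chosen by name and function, among 22664 gene symbols of the deposited table, with earlier results of these data known. Each had 1 probe set. In the mouse GAS (gastrocnemius) muscle, MYTHO, the protein encoded by *D230025D16Rik*, had been knocked down for 12 weeks (MYTHO-KD), and the question was which transcripts then differed from control muscle. The mice were C57/Bl6j males, injected in the muscle at 10 weeks of age and 22 weeks old when GAS was taken. An adeno-associated virus (AAV) of serotype 1 delivered either an sh-RNA against MYTHO or a scramble sh-RNA, both driven by the U6 promoter, which is not limited to muscle fibres. The scramble virus went into the opposite leg of the mice, so both groups had received virus. Each was measured with 4 Clariom S Mouse arrays, on which a probe set is the group of short probes for one gene.

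Fatty acids reach a fibre from circulating lipoproteins or from its own lipid droplets, are coupled to coenzyme A, and cross the inner mitochondrial membrane as carnitine esters. Within the matrix each turn of beta-oxidation shortens the chain through a dehydrogenase, a hydratase, another dehydrogenase and a thiolase, and hands electrons to the respiratory chain. In muscle, PPAR nuclear receptors and the estrogen-related receptors activate many of these genes together with PGC-1 coactivators, most strongly in oxidative fibres.

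The deposited table holds, for each probe set, the authors' average and standard deviation (SD) over the 4 arrays of each group, on the log2 scale of signal, so values of single arrays are not given here. A difference is what remains of the MYTHO-KD average after subtracting that of scramble, and 1 on this scale is a 2-fold change. It was tested across all 22206 probe sets with limma's moderated test, computed from these averages and SDs, and p-values were adjusted over all probe sets. "Rose" is used for a gene with an unadjusted p under 0.05, and "called" for one that in addition differed at least 2-fold. The labels do not tie arrays to mice, and the p-values measure only the spread between these arrays, which may be technical. *D230025D16Rik*, the knocked-down gene, averaged 7.71 (SD 0.66) in MYTHO-KD and 10.02 (SD 0.37) in scramble, which leaves 20.2% of the scramble signal (log2 difference -2.31, standard error 0.304, adjusted p = 0.0138, limma). In bulk muscle, fewer cells of a type and less RNA per cell cannot be told apart.

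The 37 chosen genes were mostly higher in MYTHO-KD muscle, while the other lipid genes described below were split between the directions. Of the 37, 34 had the higher average in MYTHO-KD, or 91.9%, where 46.9% of all probe sets did. The median difference was 0.30, with a range from -0.48 to 1.60, beside a median of -0.01 over all probe sets. The 9 that rose were *Ucp2*, *Cpt2*, *Lpl*, *Acaa2*, *Slc27a1*, *Dgat2*, *Hadh*, *Etfa* and *Eci1*, which is 24.3% of the genes, beside 6.48% of all probe sets. None fell, where 5.52% of all probe sets did. With 2-fold or more required, *Ucp2* was the only gene called (2.7% of the genes, beside 0.86% of all probe sets), and 0 were called lower, beside 0.257%. No gene of the 37 had an adjusted p under 0.05 in limma, where 0.275% of all probe sets had one. The plot of differences by role shows each gene with its interval.

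**Figure D1:**
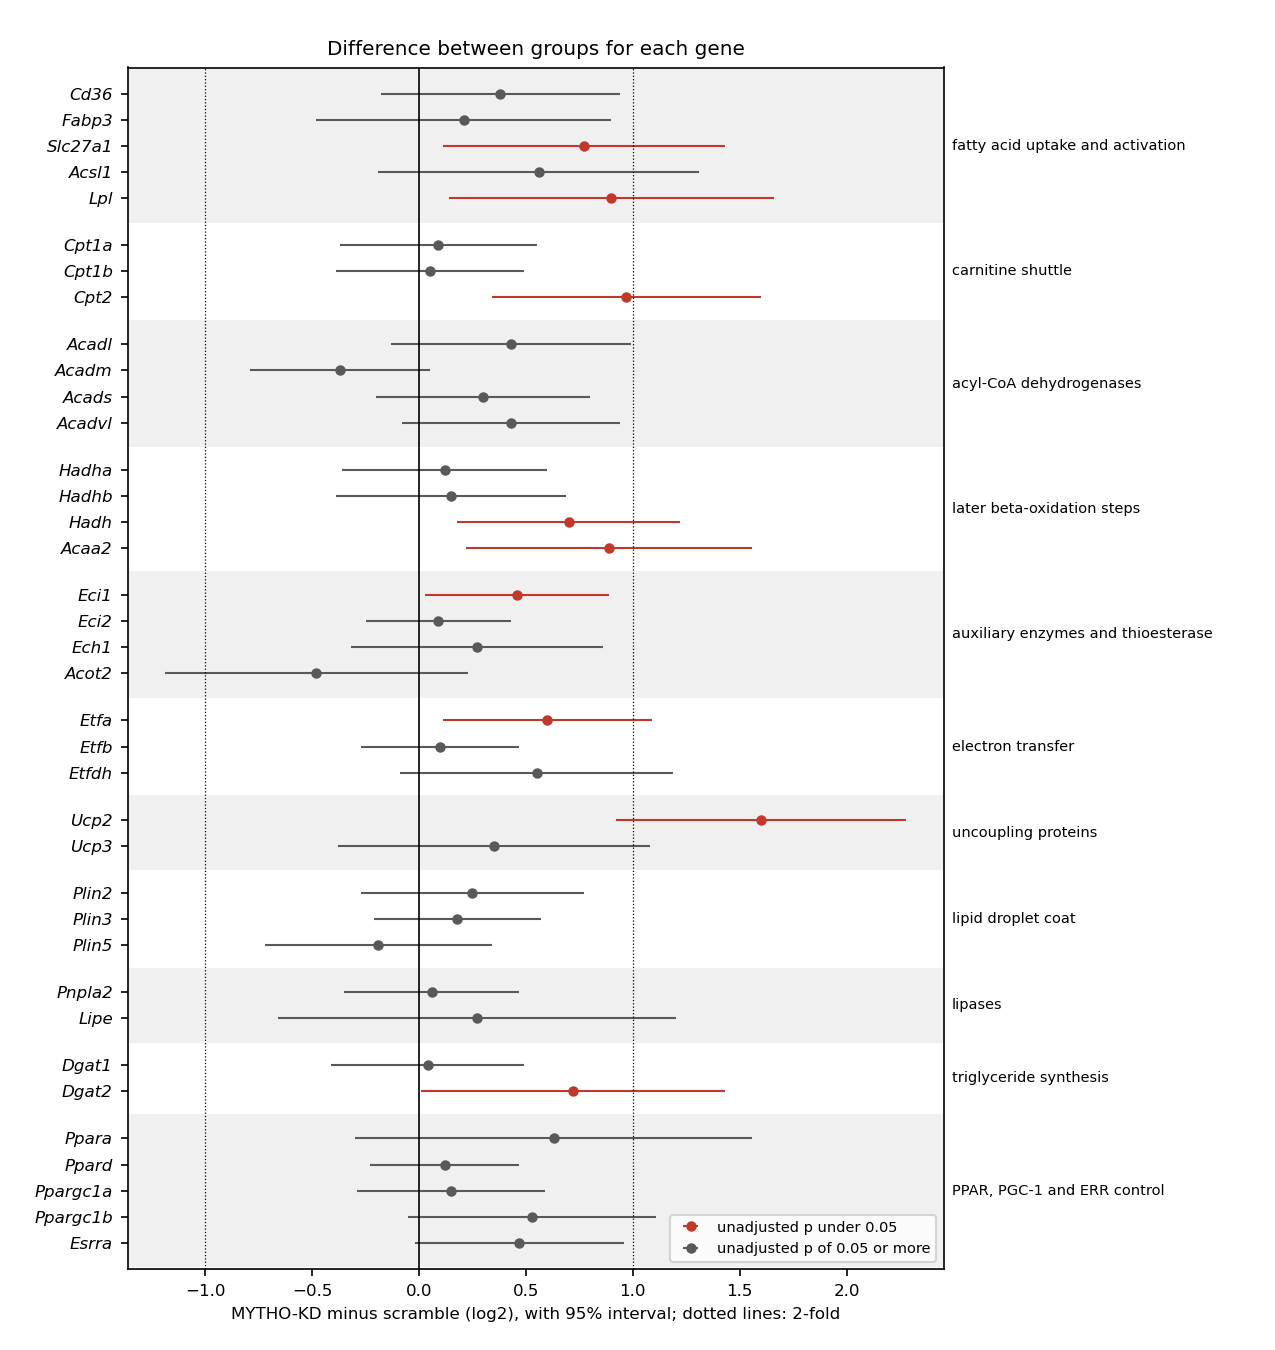
Difference between MYTHO-KD and scramble for each of the 37 genes on the log2 scale, with its 95% interval from limma's moderated variance, grouped by role. Red marks the 9 genes with an unadjusted p under 0.05, *Ucp2* lies farthest right at 1.60, and 3 points lie below 0.

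How many of the 9 pass, and what share of all probe sets does, both depended on the setting. Without drawing the variances toward their typical value 4 rose (*Cpt2*, *Etfa*, *Hadh* and *Ucp2*), beside 5.28% of all probe sets, and with unequal variances 3 did (*Cpt2*, *Hadh* and *Ucp2*), beside 4.55%. Bright probe sets passed more often: among the 3823 with a mean of at least 10, 12.9% rose and 11.7% fell. Of the 26 fatty acid genes among them 7 rose, or 26.9%, and their median difference was 0.365, beside 0.02 over the bright probe sets.

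The first group, uptake and activation, had 5 genes, all with the higher average in MYTHO-KD and a median difference of 0.56. *Lpl*, on chromosome 8, encodes lipoprotein lipase, which frees fatty acids from circulating triglyceride at the vessel wall. It averaged 14.68 in MYTHO-KD (SD 0.67) and 13.78 in scramble (SD 0.59), so the ranges of 1 SD around the averages overlapped. It rose by 0.90 (standard error 0.348, adjusted p = 0.328, limma). *Slc27a1* encodes FATP1, a fatty acid transport protein of the fibre membrane. Its averages were 12.13 in MYTHO-KD (SD 0.33) and 11.36 in scramble (SD 0.68), a rise of 0.77 (standard error 0.304, adjusted p = 0.34, limma). *Cd36*, on chromosome 5, encodes the main fatty acid translocase of muscle. It averaged 14.81 (SD 0.51) and 14.43 (SD 0.33), and its difference of 0.38 (standard error 0.258, adjusted p = 0.616) had a 95% interval from -0.18 to 0.94. *Fabp3*, which encodes the cytosolic fatty acid carrier of muscle and heart, averaged 17.94 (SD 0.73) and 17.73 (SD 0.30), a difference of 0.21 (standard error 0.314, adjusted p = 0.858). For *Acsl1*, whose enzyme couples long-chain fatty acids to coenzyme A, the difference was 0.56, with an interval from -0.19 to 1.31. In this group 4 of 5 genes had the larger SD in MYTHO-KD, beside 48.1% of all probe sets.

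**Figure D2:**
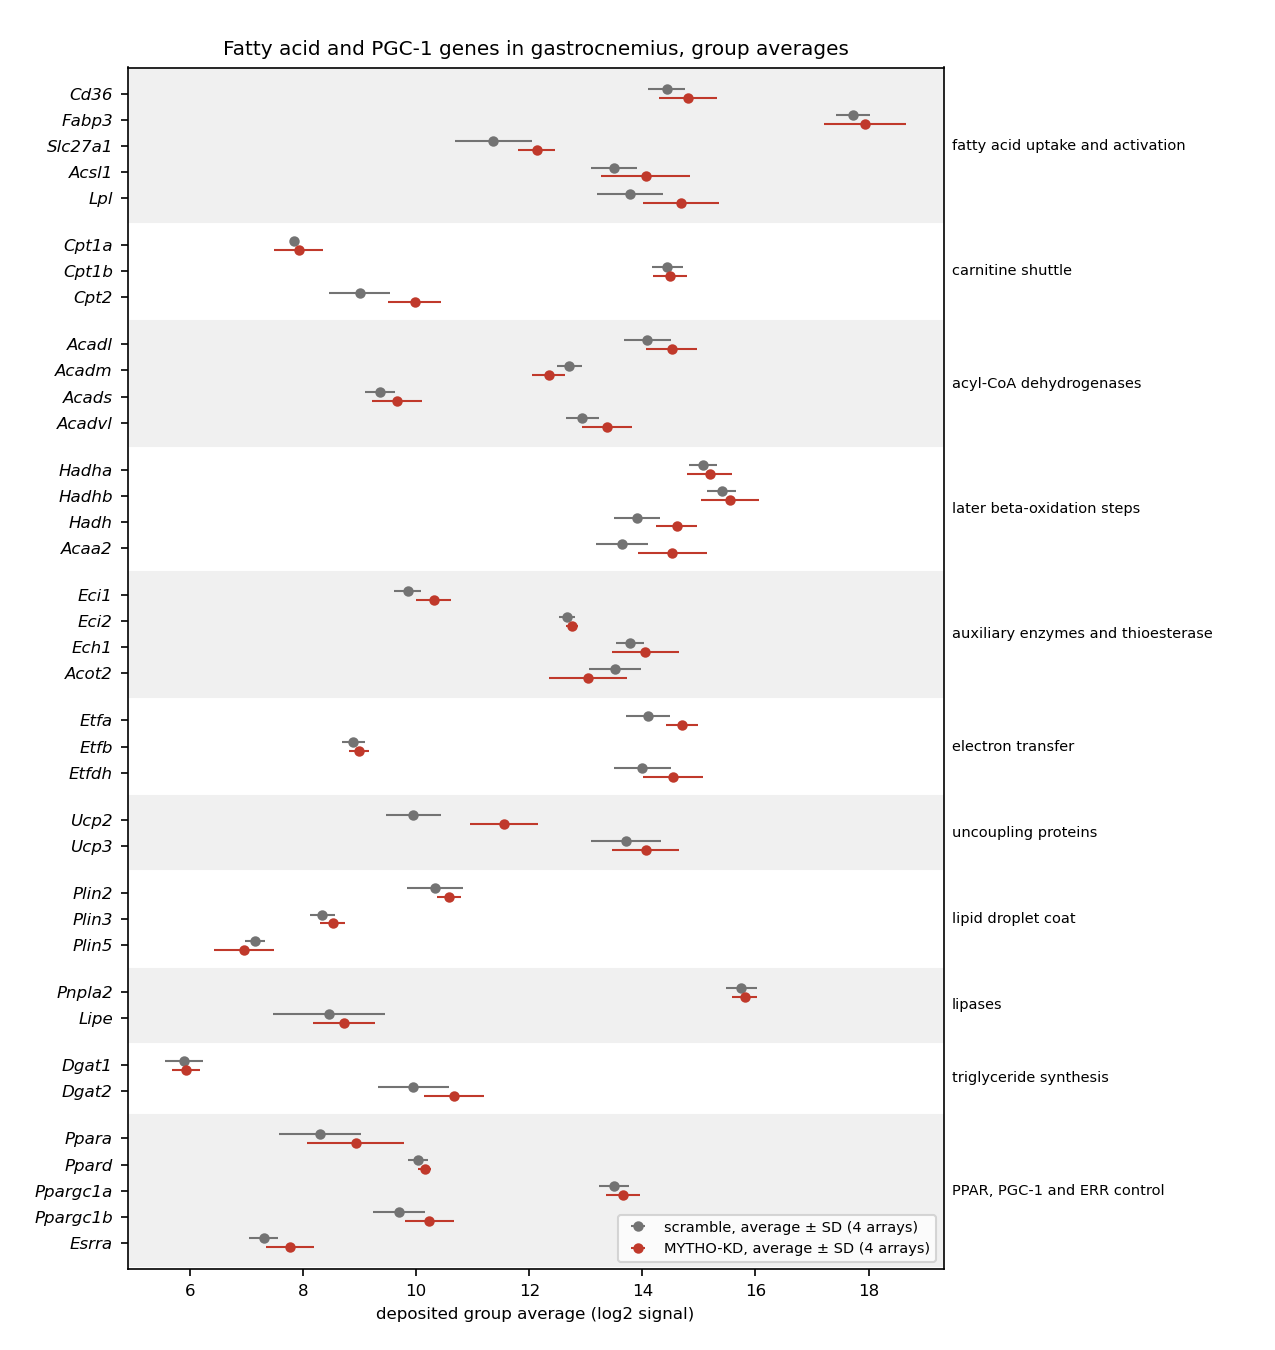
Deposited group averages of the 37 genes on the log2 scale of signal, scramble in grey and MYTHO-KD in red, with bars of 1 SD over 4 arrays. Bars of the groups overlap for every gene except *Ucp2*; levels of different genes come from different probes and are not comparable with each other.

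The carnitine shuttle moves acyl groups into the matrix, and here its last enzyme rose while the first did not pass the test. *Cpt2*, on chromosome 4, encodes the carnitine palmitoyltransferase of the inner membrane, which regenerates acyl-CoA in the matrix. It averaged 9.97 in MYTHO-KD (SD 0.46) and 9.0 in scramble (SD 0.54). The rise of 0.97 was 1.96-fold, just under the 2-fold threshold (standard error 0.289, adjusted p = 0.20, limma). *Cpt1b* encodes the muscle form of the outer membrane enzyme, the step at which malonyl-CoA limits oxidation. Its averages of 14.49 (SD 0.30) and 14.44 (SD 0.27) differed by 0.05 (standard error 0.201, adjusted p = 0.961), with a 95% interval from -0.39 to 0.49. *Cpt1a*, the liver form, differed by 0.09, and its SD was 0.44 in MYTHO-KD against 0.06 in scramble.

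None of the 4 acyl-CoA dehydrogenases, which start each turn of beta-oxidation on chains of different length, passed the test, and their median difference was 0.365. *Acadl*, the long-chain enzyme, averaged 14.52 (SD 0.45) and 14.09 (SD 0.41), a difference of 0.43 (standard error 0.259, adjusted p = 0.56). *Acadvl*, the very-long-chain enzyme of the inner membrane, also differed by 0.43, with an interval from -0.08 to 0.94, and *Acads*, the short-chain enzyme, by 0.30. The medium-chain enzyme stood on the other side of 0. *Acadm*, on chromosome 3, averaged 12.34 in MYTHO-KD (SD 0.29) and 12.71 in scramble (SD 0.22), a difference of -0.37 with an interval from -0.79 to 0.05 (adjusted p = 0.475). All 4 had the larger SD in MYTHO-KD, as did 22 of the 37 genes and 48.1% of all probe sets. Among the lipases and the triglyceride synthesis genes 0 did.

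Among the later steps of the spiral, *Hadh* and *Acaa2* rose and the trifunctional protein genes did not pass. *Hadh*, on chromosome 3, encodes the matrix hydroxyacyl-CoA dehydrogenase for medium and short chains. It averaged 14.61 in MYTHO-KD (SD 0.36) and 13.91 in scramble (SD 0.41), and rose by 0.70 (standard error 0.24, adjusted p = 0.268, limma). *Acaa2*, on chromosome 18, encodes the matrix thiolase that releases acetyl-CoA. It averaged 14.53 (SD 0.61) and 13.64 (SD 0.46), a rise of 0.89 (standard error 0.306, adjusted p = 0.269, limma). *Hadha* and *Hadhb* encode the subunits of the trifunctional protein, which performs the same steps on long chains at the inner membrane, and lie next to each other on chromosome 5. *Hadha* averaged 15.19 (SD 0.40) and 15.07 (SD 0.25), a difference of 0.12 (standard error 0.219, adjusted p = 0.892). *Hadhb* averaged 15.55 (SD 0.51) and 15.40 (SD 0.25), a difference of 0.15 (standard error 0.246, adjusted p = 0.875). The intervals of the trifunctional genes, up to 0.60 and 0.69, overlapped those of *Hadh* and *Acaa2*, and the difference between the genes was not tested.

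Auxiliary enzymes prepare unsaturated chains for the spiral. *Eci1*, on chromosome 17, encodes an enoyl-CoA isomerase, averaged 10.31 in MYTHO-KD (SD 0.31) and 9.85 in scramble (SD 0.24), and rose by 0.46 (standard error 0.198, adjusted p = 0.386, limma). *Eci2*, a further isomerase, differed by 0.09 and *Ech1*, a dienoyl-CoA isomerase, by 0.27. The lowest difference of the 37 was that of *Acot2*, the mitochondrial thioesterase that frees fatty acids from coenzyme A, at -0.48 with an interval from -1.19 to 0.23.

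Electrons from the dehydrogenases pass through the electron transfer flavoprotein and its ubiquinone oxidoreductase. *Etfa*, on chromosome 9, encodes the alpha subunit of the flavoprotein. It averaged 14.70 in MYTHO-KD (SD 0.29) and 14.10 in scramble (SD 0.39), a rise of 0.60 (standard error 0.223, adjusted p = 0.317, limma). The beta subunit gene *Etfb* differed by 0.10, with an interval from -0.27 to 0.47, and its probe set also lists the microRNA gene *Mir7051*. *Etfdh*, the oxidoreductase, differed by 0.55, with an interval from -0.09 to 1.19. Counted together, the 18 genes from the carnitine shuttle to electron transfer had 16 higher averages in MYTHO-KD (88.9%, beside 46.9% of all probe sets), 5 rises (27.8%, beside 6.48%) and a median difference of 0.285. Their mean level was high, 12.81 in MYTHO-KD and 12.51 in scramble, and of probe sets with a mean of at least 10, 12.9% rose.

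*Ucp2* showed the clearest difference of the 37. It encodes an uncoupling protein family carrier of the inner mitochondrial membrane that is made in many tissues and is abundant in macrophages, and lies on chromosome 7 from 100493337 to 100502173 (mm10). Its average was 11.55 in MYTHO-KD (SD 0.60) and 9.95 in scramble (SD 0.49), and the ranges of 1 SD did not overlap. That held for no other gene of the 37, so 2.7% of them were apart upward, beside 4.07% of all probe sets, and 0 were apart downward, beside 3.98%. The rise of 1.60 was 3.03-fold, with a 95% interval from 0.92 to 2.28 (standard error 0.31, adjusted p = 0.0648, limma). The adjusted p was 0.0185 with a trend and robust fitting in limma and 0.0353 among probe sets with a mean of at least 10, and ranged up to 0.429 with unequal variances. *Ucp3*, the form found mainly in muscle, lies 6905 bases upstream on the same strand. It averaged 14.06 in MYTHO-KD (SD 0.59) and 13.71 in scramble (SD 0.62), a difference of 0.35 with an interval from -0.38 to 1.08 (standard error 0.336, adjusted p = 0.749).

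The sequences before these neighbouring genes, and before *Acadm*, a textbook target of PPAR and the estrogen-related receptors, are shown because the control genes of this pathway act through such sequences. They were taken from RefSeq promoters of GRCm38.p6, on the gene's own strand, and stop at the transcript start. AGGTCA, the half-site of these nuclear receptors, was searched on both strands, and so was AAGGTCA, the longer element of the estrogen-related receptors, which holds it. The window of *Ucp2* is chr7:100493108-100493336 on the plus strand, that of *Ucp3* is chr7:100472741-100472990 on the plus strand, and that of *Acadm* is chr3:153944644-153944893 on the minus strand. Capitals mark AGGTCA in the *Ucp3* window and the reverse complement of AAGGTCA in the *Acadm* window; the *Ucp2* window holds neither.
Ucp2: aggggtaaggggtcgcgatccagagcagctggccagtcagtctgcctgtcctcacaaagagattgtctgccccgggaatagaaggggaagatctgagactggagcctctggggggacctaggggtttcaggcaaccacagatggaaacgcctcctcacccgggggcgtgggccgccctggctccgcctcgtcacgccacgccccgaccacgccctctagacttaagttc
Ucp3: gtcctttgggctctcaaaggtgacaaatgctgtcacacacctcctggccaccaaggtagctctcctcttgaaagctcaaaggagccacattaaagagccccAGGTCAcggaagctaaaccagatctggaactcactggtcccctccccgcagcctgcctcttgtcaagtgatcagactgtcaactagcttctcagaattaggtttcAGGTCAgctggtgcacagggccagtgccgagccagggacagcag
Acadm: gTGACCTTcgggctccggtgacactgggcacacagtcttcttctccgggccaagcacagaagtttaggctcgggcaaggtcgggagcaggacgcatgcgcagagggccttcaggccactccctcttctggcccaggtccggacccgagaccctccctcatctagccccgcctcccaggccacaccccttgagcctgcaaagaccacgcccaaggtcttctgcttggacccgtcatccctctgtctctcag

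In the *Ucp3* window the half-sites begin 149 and 44 bases before the transcript start, and in the *Acadm* window the element begins 249 bases before it. GC content was 63.3% in the *Ucp2* window, 54.8% in that of *Ucp3* and 64% in that of *Acadm*, with a median of 52.7% over all promoters. The promoter table covers 250 bases before to 50 after each start, and held 36 promoters of 31 of the 37 genes. AGGTCA was found in 8 of the 36 (22.2%), belonging to *Acadm*, *Acadvl*, *Cd36*, *Cpt1a*, *Plin2*, *Plin5* and *Ucp3*, beside 16.3% of all 32851 promoters. AAGGTCA was found in 1 of the 36 (2.78%), beside 4.72%. The direct repeat bound by PPAR, 2 copies of AGGNCA in the same direction with 1 base between them, was found in 0 of the 36, beside 0.381%. None of the genes that rose and have a promoter in the table holds AGGTCA in it, which says only that these letters are not in these windows.

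Of the genes of the lipid droplet, where fibres keep triglyceride, only *Dgat2* rose. *Plin2*, a droplet coat protein that follows stored lipid, averaged 10.58 in MYTHO-KD (SD 0.22) and 10.33 in scramble (SD 0.50), a difference of 0.25 (standard error 0.24, adjusted p = 0.75). The other coat proteins were *Plin3*, with a difference of 0.18, and *Plin5*, which ties droplets to mitochondria, with a difference of -0.19 and an interval from -0.72 to 0.34. *Pnpla2*, the first lipase of triglyceride breakdown, averaged 15.81 (SD 0.22) and 15.75 (SD 0.27), a difference of 0.06 (standard error 0.188, adjusted p = 0.948). *Lipe*, hormone-sensitive lipase, differed by 0.27 and had the largest scramble SD of the 37, 0.99. Synthesis was measured by a pair of genes. *Dgat2*, on chromosome 7, encodes an enzyme of the final step of triglyceride synthesis, averaged 10.67 in MYTHO-KD (SD 0.53) and 9.95 in scramble (SD 0.63), and rose by 0.72 (standard error 0.325, adjusted p = 0.41, limma). It no longer passed without moderation of the variances or with unequal variances. The same held when dim probe sets, below the 30th percentile of mean signal, were left out. It also held when only probe sets with a mean of at least 10 were kept. *Dgat1*, which catalyses the same reaction, differed by 0.04, with an interval from -0.41 to 0.49. Its averages of 5.93 in MYTHO-KD and 5.89 in scramble were low, under the median of 6.81 over all probe sets in each group.

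None of the 5 control genes passed the test, although all had the higher average in MYTHO-KD and their median difference was 0.47. *Ppargc1a*, on chromosome 5, encodes PGC-1α, the coactivator of mitochondrial biogenesis. It averaged 13.65 in MYTHO-KD (SD 0.30) and 13.50 in scramble (SD 0.26), a difference of 0.15 (standard error 0.20, adjusted p = 0.835) with an interval from -0.29 to 0.59. Its relative *Ppargc1b* averaged 10.23 (SD 0.43) and 9.70 (SD 0.46), a difference of 0.53 (standard error 0.265, adjusted p = 0.458). *Esrra*, the estrogen-related receptor through which PGC-1 raises oxidative genes, averaged 7.77 (SD 0.42) and 7.30 (SD 0.25), a difference of 0.47 with an interval from -0.02 to 0.96 (adjusted p = 0.434). *Ppara*, the PPAR of fatty acid oxidation, averaged 8.93 (SD 0.86) and 8.30 (SD 0.73), a difference of 0.63 with a wide interval from -0.30 to 1.56 (adjusted p = 0.614). *Ppard*, the PPAR form prominent in muscle, averaged 10.15 (SD 0.11) and 10.03 (SD 0.18), a difference of 0.12 with an interval from -0.23 to 0.47 (adjusted p = 0.835). The probe sets of *Esrra* and *Ppard* each list a second symbol, *Mir6990* and *1810013A23Rik*.

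Other genes of lipid handling, 111 in 7 lists, were split between the directions, with 56 higher and 53 lower averages in MYTHO-KD and a median difference of 0.03. Of these, 10 rose (9.01%, beside 6.48% of all probe sets) and 8 fell (7.21%, beside 5.52%). Among the 51 with a mean of at least 10 the balance turned, with 4 that rose and 10 that fell, beside 12.9% and 11.7% of the bright probe sets. The strip plot of lipid lists shows each of them beside the 37.

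**Figure D3:**
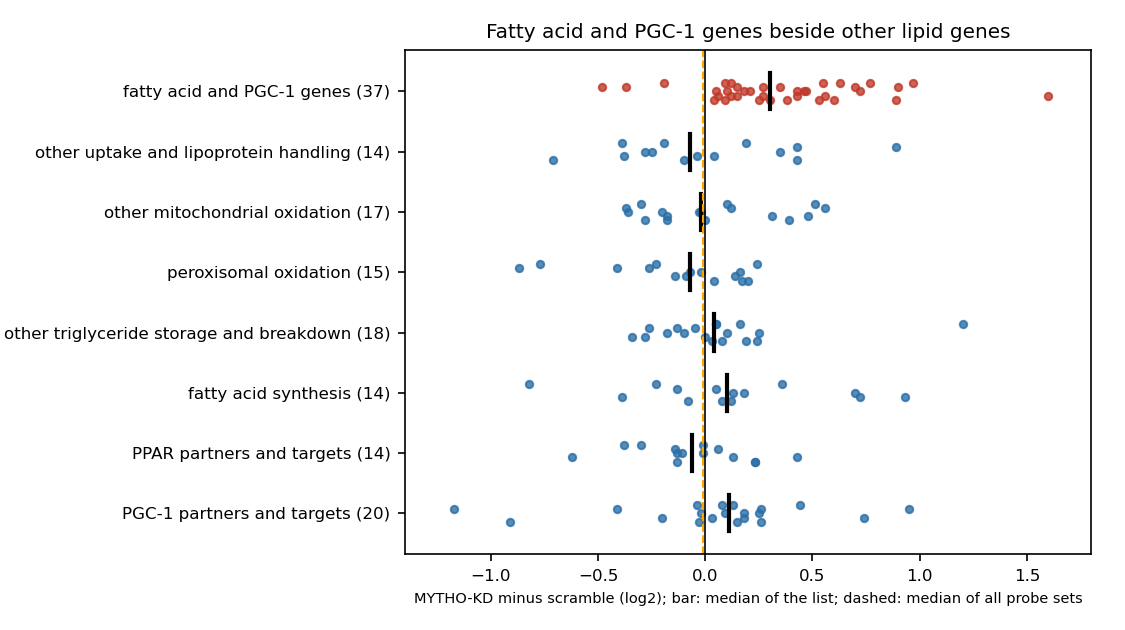
Differences between MYTHO-KD and scramble on the log2 scale for the 37 genes (red) and for 7 lists of other lipid genes (blue), 1 point a gene, with the number of genes in brackets. Bars are medians, 0.30 for the 37 genes and between -0.07 and 0.11 for the other lists.

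In the remaining uptake list of 14, *Fabp5*, a fatty acid binding protein also found in macrophages and endothelium, rose by 0.89 (adjusted p = 0.123, limma). *Got2*, the mitochondrial aspartate aminotransferase, rose by 0.43 (adjusted p = 0.364, limma). *Acsl3*, an acyl-CoA synthetase of lipid droplets, had a difference of -0.71 (adjusted p = 0.249, limma), and its probe set also lists *Utp14b*. In the mitochondrial list of 17, *Hsd17b10*, a dehydrogenase of short and branched chains, rose by 0.48 (adjusted p = 0.289) and *Acat1*, the acetoacetyl-CoA thiolase, by 0.56 (adjusted p = 0.409), and none fell. Peroxisomes shorten very long chains, and of their 15 genes none rose. Those that fell were *Abcd2*, a peroxisomal acyl-CoA transporter (-0.77, adjusted p = 0.146), and *Crot*, the carnitine octanoyltransferase that exports shortened chains (-0.87, adjusted p = 0.189). *Agpat2*, an enzyme of phosphatidic acid synthesis, was the 1 gene of 18 in the triglyceride list that rose, by 1.20 (adjusted p = 0.289), with an SD of 1.10 in MYTHO-KD and 0.29 in scramble.

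Of 14 fatty acid synthesis genes, *Fads1* (0.93, adjusted p = 0.146) and *Elovl5* (0.70, adjusted p = 0.271), which desaturate and lengthen polyunsaturated chains, and *Thrsp* (0.72, adjusted p = 0.289), a lipogenic regulator, rose. *Me1*, the malic enzyme that supplies NADPH, fell, with a difference of -0.82 (adjusted p = 0.344). Among 14 partners and targets of PPAR, *Rxrg*, the retinoid X receptor form of muscle, was the only one past the threshold (-0.62, adjusted p = 0.278). The well known PPAR targets *Pdk4* and *Angptl4* differed by 0.06 (adjusted p = 0.973) and -0.38 (adjusted p = 0.64). Among 20 partners and targets of PGC-1, *Fndc5*, the precursor of irisin (0.95, adjusted p = 0.178), and *Esrrg*, an estrogen-related receptor (0.74, adjusted p = 0.357), rose. *Prkab2* (-1.17, adjusted p = 0.122) and *Prkag3* (-0.91, adjusted p = 0.209), subunits of the energy sensor AMPK, and *Tfb2m* (-0.41, adjusted p = 0.289), a mitochondrial transcription factor, fell. *Tfam*, the packaging factor of mitochondrial DNA, and *Cs*, citrate synthase, differed by 0.08 and 0.13. None of the genes named from these lists had an adjusted p under 0.05 in limma.

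Muscle markers were near the top of the signal range in both groups, with 7 of 10 muscle identity genes averaging above 19 in MYTHO-KD, where a rise can be hidden. Of the 10, 2 were higher and 7 lower in average, with a median difference of -0.055, and 1 passed the test. That gene, *Mb*, which encodes the oxygen store myoglobin of oxidative fibres, averaged 19.75 and 18.82, a rise of 0.93 (standard error 0.192, adjusted p = 0.0754, limma). Markers of macrophages, fibroblasts, endothelium and blood were also higher. Of all probe sets, 6.48% rose, 0.86% were called higher and 0.275% had an adjusted p under 0.05 in limma. All 12 macrophage markers had the higher average in MYTHO-KD, and their mean level was 8.09 against 7.07. Of these, 8 rose, 5 were called and 2 had an adjusted p under 0.05. *Cd68* (2.53, adjusted p = 0.0182, limma) and *Lyz2* (1.94, adjusted p = 0.0277, limma) had the largest differences of this list. All 9 fibroblast markers were likewise higher in average, and their mean level was 10.84 against 9.87. Of these, 5 rose, 4 were called and 2 had an adjusted p under 0.05, while 0 endothelial or blood markers were called. For endothelium, where LPL is anchored and CD36 is also made, it was 10 of 10 higher averages, 3 rises and a mean level of 9.88 against 9.49, and of 5 blood probe sets 4 were higher and 2 rose. The part of these cells in the rises of *Ucp2*, *Lpl* and the other genes was not tested.

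**Figure D4:**
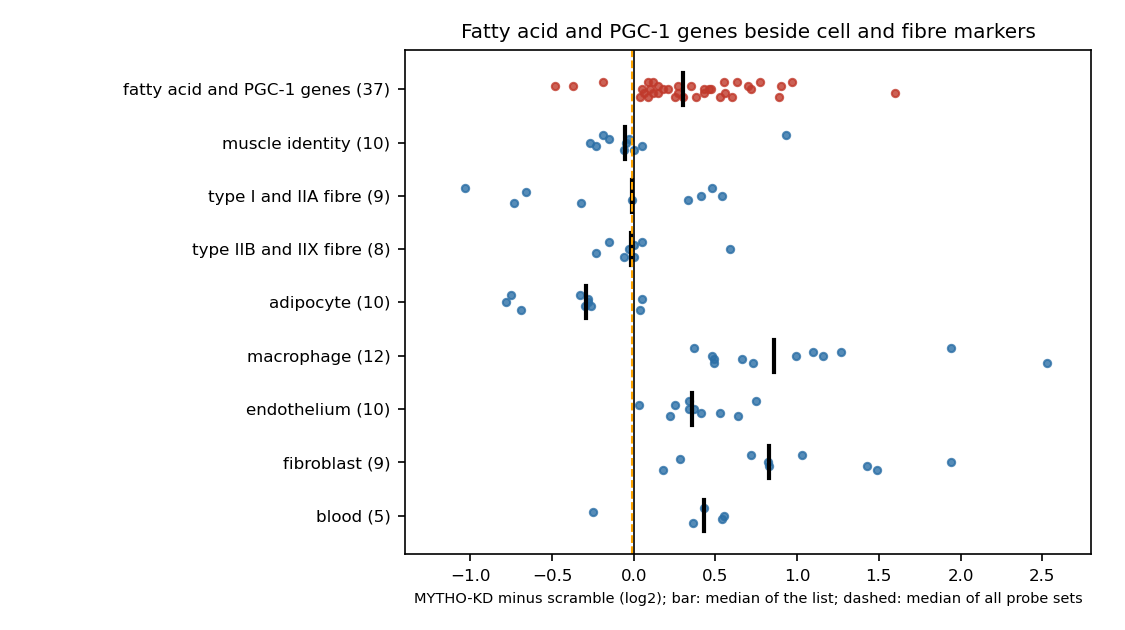
Differences between MYTHO-KD and scramble on the log2 scale for the 37 genes (red) and for 8 lists of cell and fibre markers (blue), 1 point a probe set, with medians as bars. Macrophage and fibroblast markers have medians of 0.86 and 0.83, adipocyte markers -0.29.

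Adipocytes also hold many of these genes. Their 10 markers were not higher: 8 had the lower average in MYTHO-KD, the median difference was -0.29, and none passed the test. *Adipoq*, which encodes adiponectin, averaged 7.04 (SD 2.13) and 7.73 (SD 2.22), so single arrays differed widely within both groups.

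Most markers of type I and IIA fibres varied widely between arrays as well, and the source of this spread was not tested. Of 9 markers of type I and IIA fibres, which rely on fatty acids, 8 had the larger SD in MYTHO-KD, with a median SD of 2.08 against 0.89 in scramble. Their averages leaned neither way: 4 were higher and 5 lower in MYTHO-KD, with a median difference of -0.01 and a range from -1.03 to 0.54, and 1 rose. *Myh7*, the slow myosin, averaged 11.67 and 12.40 with SDs of 3.26 and 1.30, and the slow troponin gene *Tnni1*, the lowest in difference, averaged 9.84 and 10.87 with SDs of 3.67 and 1.43. The slow myosin light chain gene *Myl3*, the highest in difference, averaged 11.70 and 11.16 with SDs of 1.39 and 0.70. Of the 37 fatty acid genes 22 (59.5%) had the larger SD in MYTHO-KD, beside 48.1% of all probe sets, and their median SD was 0.44 against 0.33 in scramble. The highest SDs among them were 0.99 for *Lipe* in scramble and 0.86 for *Ppara* in MYTHO-KD. Of the 9 type I and IIA markers, the one that rose was *Myh2*, the type IIA myosin, by 0.41 (adjusted p = 0.315, limma), close to the top of the range. Its SD was 0.01 in MYTHO-KD and 0.16 in scramble, the other way from the other 8. The paper reports lower *Myh2* mRNA after the knockdown, by RT-qPCR in another muscle, the tibialis anterior. It also reports a smaller share of type IIA fibres there. The reason for the opposite direction in GAS was not tested. Of 8 type IIB and IIX markers, 2 were higher, 4 lower and 2 equal in average, with a median difference of -0.015. *Myh1* alone rose, by 0.59 (adjusted p = 0.23, limma). In this list 7 markers averaged above 19, where a difference can be hidden. The equal ones, *Myh4* and *Atp2a1*, averaged 19.93 with an SD of 0.00 in both groups. The part of fibre type in the differences of the 37 genes was not tested.

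**Figure D5:**
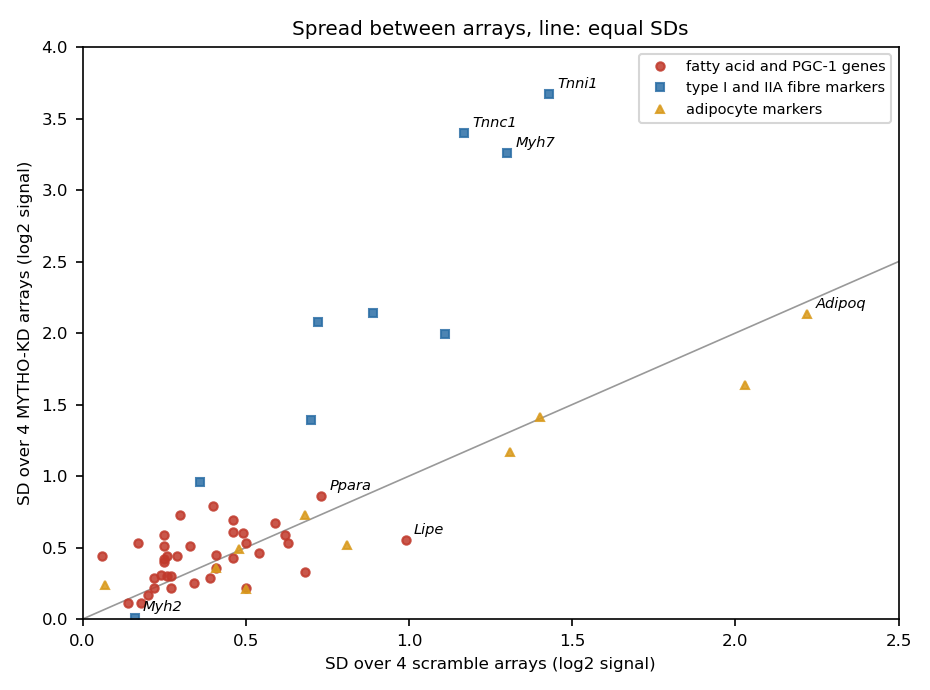
SD over 4 arrays in MYTHO-KD (vertical) against scramble (horizontal), on the log2 scale, for the 37 genes, 9 type I and IIA fibre markers and 10 adipocyte markers; the line marks equal SDs. Most fibre markers lie far above the line, with *Tnni1* at 3.67 against 1.43, while the 37 genes stay below 1 on both axes.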

How the data were processed

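Total GAS RNA from 4 MYTHO-KD and 4 scramble samples was hybridized to Clariom S Mouse arrays. The authors applied SST-RMA (Transcriptome Analysis Console 4.0.1) to all arrays and deposited group averages and SDs on the log2 scale, written with a decimal comma. The submitters' processing notes also name Affymetrix Expression Console, RMA and mm10. The table's fold changes, p-values and false discovery rates are the authors' own comparison and were not used. The kind of average is not stated. If it is not a plain mean, the test may call too many probe sets, which was not tested. At 2-fold and p under 0.05 the test here called 191 probe sets higher and 57 lower. With the same thresholds the paper counts fewer genes in both directions, and the reason was not tested. Columns of single arrays left unused numbered 0.

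Groups came from the sample labels. Group variances were averaged, with 6 residual degrees of freedom, and then moderated by squeezeVar of limma 3.58.1 in R 4.3.3 (prior SD 0.284, prior degrees of freedom 5.85). P-values were two-sided and adjusted by Benjamini-Hochberg over 22206 probe sets. The procedure was tested on simulated data with plain means and unpaired groups. That test cannot show how it behaves with another kind of average or with legs of the same mice. Calls required 2-fold and an unadjusted p under 0.05, after the study's methods. Intervals are 95% and use the moderated variance.

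The 37 genes and all lists were chosen with earlier results of these data known. Full values are given for genes with an unadjusted p under 0.05, for the 8 of highest mean average, and for *Cpt1b*, *Cd36*, *Ucp2*, *Ucp3*, *Plin2* and the control genes; from other lists, genes with an unadjusted p under 0.05 are named, at most the 4 of lowest p. *Esrrg*, *Pdk4*, *Angptl4*, *Tfam*, *Cs* and the named marker genes were chosen after their values were seen. Alternatives were no moderation, trend and robust fitting, unequal variances, filters on dim or unexpressed probe sets, 1 probe set per symbol, centring, and other thresholds. Arrays have no sequencing depth, and their number limits the precision. The arrays of the earlier time point were not analysed here.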

Additional observations from a re-analysis of the deposited data

How the results depend on the processing

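Across 8 alternative fits, 272 of 285 differences of the 37 genes kept their side of the unadjusted threshold and 13 lost it. That 0 reversed direction was fixed in advance: every fit used the same averages, and centring only subtracted the median of -0.01. Genes higher at an unadjusted p under 0.05 numbered 9, and 4 without moderation, 3 with unequal variances and 0 at 2-fold with an adjusted p under 0.05. Genes called higher numbered 1, and 8 at 1.5-fold and 0 at 2-fold with an adjusted p. Of the other lipid genes, 10 were higher and 8 lower, against 6 higher and 7 lower with unequal variances, 4 higher and 10 lower among the 51 with a mean of at least 10, and 0 and 0 at 2-fold with an adjusted p. Over all probe sets, 191 were called higher and 57 lower, against 74 and 33 with a mean of at least 10, 787 and 500 at 1.5-fold, and 38 and 19 at 2-fold with an adjusted p. Probe sets with an adjusted p under 0.05 numbered 61, against 2 without moderation or with unequal variances, and 189 with trend and robust fitting or with a mean of at least 10. The filter at a mean of 10 was chosen after seeing the data. The lower counts under filters come in part from fewer probe sets tested; other causes were not tested. No paired analysis was possible because the table gives group averages, and for the same reason the alternatives without 1 array were not run. The next brightest probe set gave no value, since each of the 37 genes had 1.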
